A study of Mus musculus with 6 samples.

Results

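The Serpin gene family was examined in mouse epidermal keratinocytes that lacked *Sox4*, *Sox11* or both genes, which encode transcription factors of the SoxC class. Members were the probes whose RefSeq transcript belongs to a mouse gene with a symbol that begins with Serpin, which gave 75 probes of 60 genes out of 55681 probes and 21368 named genes on the array. Every array compared total RNA of knockout cells with total RNA of wild-type control cells on 2 dyes, with 2 biological replicates each of Sox4 cKO (Sox4cKO), Sox11 cKO (Sox11cKO) and dcKO (Sox4/11 dcKO) cells. The dyes were exchanged between replicates, so knockout RNA carried Cy5 in replicate 1 and Cy3 in replicate 2.

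All cells were primary skin keratinocytes from newborn pups, with the strain labelled 129SvEx:C57BL/6. Both knockout and control cells had first been grown on J2 fibroblast feeders and were then passaged without them. Per the study's methods, the floxed alleles were deleted by Krt14-Cre, which is active in basal keratinocytes and was brought in from FVB/N mice, and the mouse stock also carried a *Sox12* deletion whose state in these cells is not given in the sources used here. Whether the wild-type RNA of the 6 arrays came from separate cultures is not stated in the labels, so p-values refer to these arrays only. They rest on a variance pooled over all 6 arrays after a term for the dye, and not on the spread within a genotype. *Sox4* had a log2 ratio (knockout over wild type) of -2.49 and -2.54 on the Sox4 cKO arrays and -2.23 and -2.81 on the dcKO arrays. *Sox11* had ratios of -3.31 and -2.65 on the Sox11 cKO arrays and -3.07 and -3.79 on the dcKO arrays. All 10 keratinocyte markers were well above background in every channel, whereas 1 of 9 fibroblast markers was so in at least 6 of the 12 channels. The summed linear level of the fibroblast list was 604 and 541 in the wild-type channels of the Sox4 cKO arrays, against 276 to 304 in the other wild-type channels. Its marker *Vim*, which was not the detected one, was lower in Sox4 cKO cells, with ratios of -1.63 and -2.90 (limma adjusted p = 0.0341). The detected marker had a log2 fold change of -0.058 in these cells, which was also the median of the 9 markers. Over detected probes the ratios of the 2 replicates correlated at -0.0469 for Sox11 cKO, 0.257 for Sox4 cKO and 0.599 for dcKO cells, and replicate 2 of Sox11 cKO stood apart in its wild-type channel for several Serpin genes, as given with each of them.

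Serpins are a superfamily of proteins that mostly inhibit serine proteases. The protease cleaves an exposed loop of the serpin, and the serpin then changes its fold and traps the enzyme in a covalent complex. Clade A members such as alpha-1-antitrypsin (Serpina1) and antichymotrypsin (Serpina3) are secreted and are best known from liver and from the acute phase response. Clade B members lack a classical signal peptide, stay largely inside the cell and are common in epidermis and leukocytes. In mice both clades have expanded into arrays of closely similar genes, so a probe for such a gene can bind transcripts of its neighbours. Serpins outside these clades include members that inhibit no protease, such as the collagen chaperone Serpinh1.

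Of the 60 genes, 26 were detected, meaning that the brightest probe was well above background in at least 6 of the 12 channels. These were 4 of 10 Serpina3 genes, 6 of 13 other Serpina genes, 13 of 27 Serpinb genes and 3 of 10 genes of other clades. This share of 43.3% lay beside 56.2% of all named genes, each also taken at 1 probe (12011 of 21368). By probe, 31 of 75 were detected (41.3%), beside 40.9% of all probes on the array. Probes above background in all 12 channels numbered 5 of 13 for Serpina3, 2 of 18 for other Serpina, 10 of 31 for Serpinb and 2 of 13 for other clades. The remaining 34 genes, among them the antithrombin gene *Serpinc1* and the C1 inhibitor gene *Serping1*, were not detected by this definition.

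**Figure D1:**
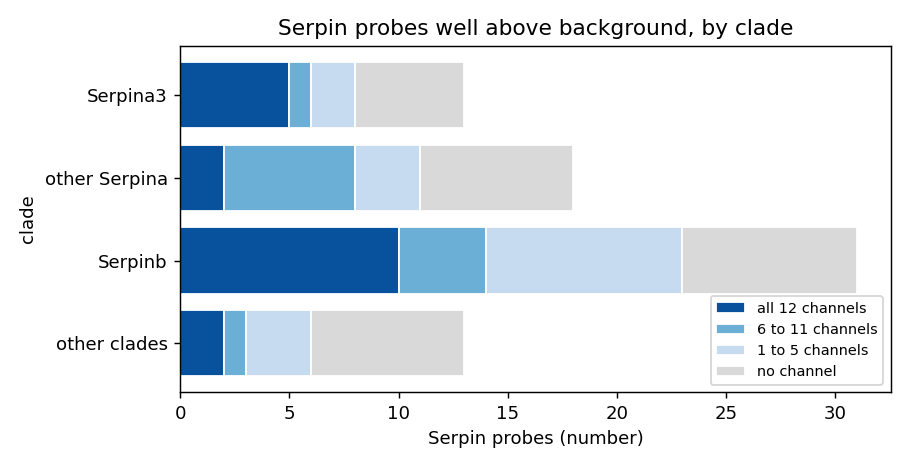
Number of Serpin probes by the number of channels (12 in all, 2 on each of 6 arrays) in which the probe was well above background, for the 13 Serpina3, 18 other Serpina, 31 Serpinb and 13 other probes. Serpinb holds 10 of the probes above background in every channel, and each clade holds probes above background in none.

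A call required an absolute log2 fold change above 1.5 together with an adjusted p below 0.05 (limma, Benjamini-Hochberg over 55681 probes). In dcKO cells 4 of 75 Serpin probes were called, beside 0.756% of all probes. *Serpina3f* and *Serpina3i* were lower, and *Serpina3m* and *Serpinb1a* were higher. No Serpin probe was called in Sox4 cKO cells, where 0.14% of all probes were called, or in Sox11 cKO cells, where 0.0862% were. At an unadjusted limma p below 0.05 there were 5 Serpin probes in Sox4 cKO, 20 in Sox11 cKO and 22 in dcKO cells, out of 4122, 3813 and 7259 probes on the array. With a background offset of 50, or with the scanner software's processed signals, 0 Serpin probes were called in dcKO cells, where 78 and 0 probes of the whole array were called.

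**Figure D2:**
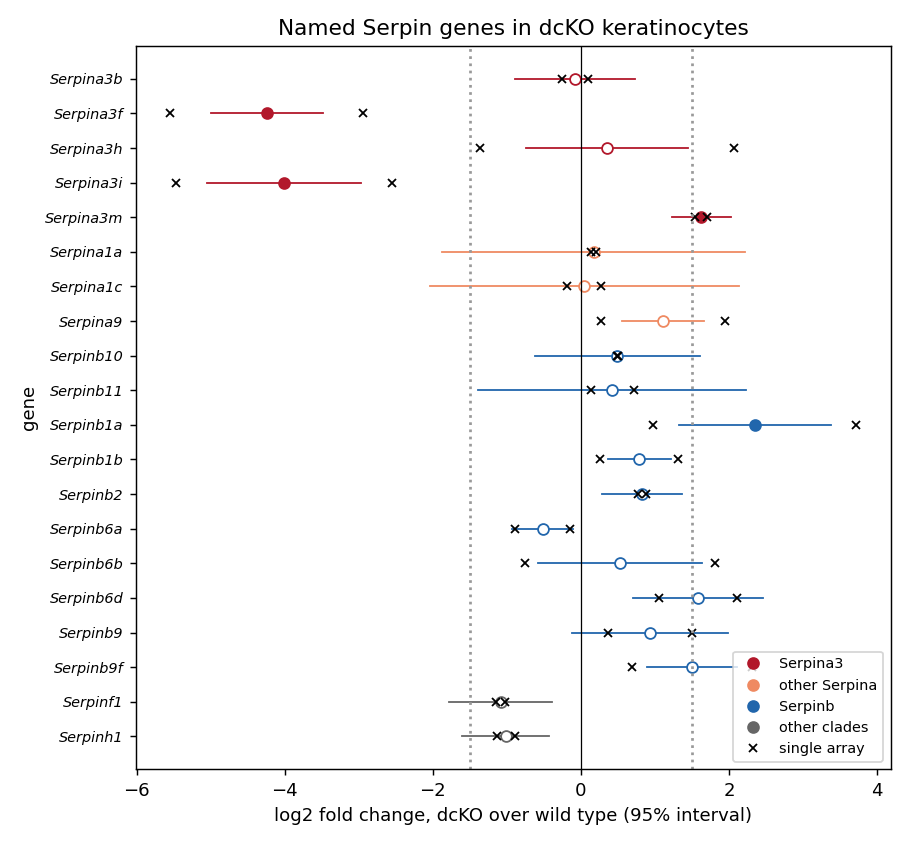
Log2 fold change of 20 named Serpin genes in dcKO over wild-type cells, with the 95% interval of the limma fit as a line, the 2 arrays as crosses and called genes as filled points; dotted lines mark the fold threshold of 1.5. *Serpina3f* at -4.24 and *Serpina3i* at -4.01 lie far below the rest, and *Serpinb1a* at 2.35 is the highest.

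The Serpina3 genes of the mouse stand in place of a lone human antichymotrypsin gene and lie side by side on chromosome 12. *Serpina3f* (probe A_55_P2142226) showed the largest fall of the family in dcKO cells. Its log2 levels were 11.30 and 8.70 in the knockout channels and 14.24 and 14.25 in the wild-type channels of the dcKO arrays. Knockout and wild type did not overlap on these arrays, but the array ratios of -2.94 and -5.55 differed by more than 2 log2 units. The log2 fold change was -4.24 ± 0.32 (SE, n = 2 arrays; limma adjusted p = 0.00197). Each SE here and below is that of the limma fit, with variance pooled over all 6 arrays after the dye term and moderated. It is not the spread of the 2 arrays of a genotype, which their ratios show. In RNA from whole cultures, fewer cells that express a gene and less RNA per cell cannot be told apart. *Serpina3i* (probe A_55_P1966774) had levels of 8.57 and 6.22 in dcKO and 11.13 and 11.68 in wild-type channels. Its array ratios of -2.56 and -5.47 followed those of *Serpina3f*, with a log2 fold change of -4.01 ± 0.44 (SE, n = 2 arrays; limma adjusted p = 0.00819). Both probes were called in dcKO cells without any 1 of the 6 arrays.

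The same probes had very different wild-type levels from array to array. *Serpina3f* read 15.03 and 15.78 in the wild-type channels of the Sox4 cKO arrays and 5.89 and 7.91 in those of the Sox11 cKO arrays. The range over the 6 wild-type channels, 9.89 log2 units, was the largest of all 22739 detected probes with a value on every array, whose median range was 0.82. The range of the *Serpina3i* probe was 7.79, and 8 detected probes had a larger one. Levels of *Serpina3f* in dcKO cells, 11.30 and 8.70, were therefore above both wild-type levels on the Sox11 cKO arrays and below those on the Sox4 cKO and dcKO arrays. The knockout channels followed their own array, at 14.80 and 14.83 in Sox4 cKO and 7.75 and 9.13 in Sox11 cKO cells. Log2 ratios were -0.24 and -0.95 in Sox4 cKO cells (limma adjusted p = 0.76) and 1.86 and 1.22 in Sox11 cKO cells (limma adjusted p = 0.222). With either dcKO array left out, *Serpina3f* was called in Sox11 cKO cells at an unchanged log2 fold change of 1.54. These 2 fits are the same for Sox11 cKO, since an array alone in its genotype adds no residual. The arrays with the highest wild-type *Serpina3f*, those of Sox4 cKO, were also those with the higher wild-type fibroblast sum given above, and its part in these values was not tested.

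**Figure D3:**
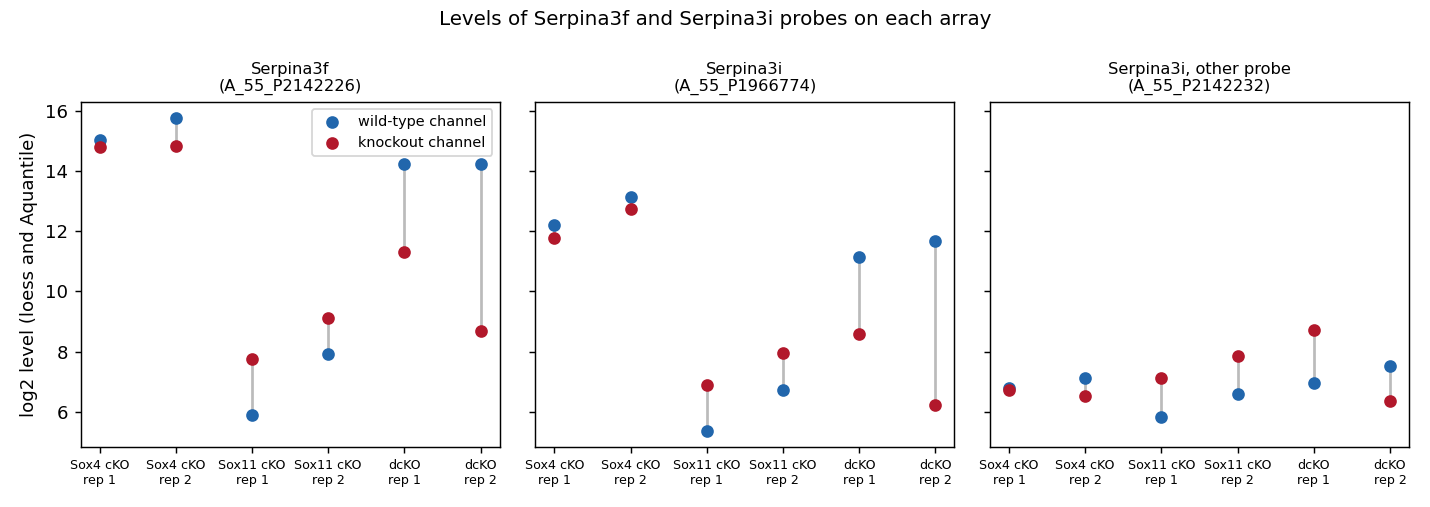
Log2 level in the wild-type and knockout channel of each of the 6 arrays for the brightest *Serpina3f* probe and both *Serpina3i* probes, 1 panel per probe; grey lines join channels of an array. Wild-type *Serpina3f* lies between 14.24 and 15.78 on the Sox4 cKO and dcKO arrays and at 5.89 and 7.91 on the Sox11 cKO arrays.

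Genotypes were then compared with each other for *Serpina3f* and *Serpina3i*. The fold change of *Serpina3f* in dcKO cells was below that in Sox4 cKO cells by a difference of -3.65 ± 0.46 (SE, n = 2 arrays per genotype; limma adjusted p = 0.024). It was below that in Sox11 cKO cells by a difference of -5.78 ± 0.46 (SE, n = 2 arrays per genotype; limma adjusted p = 0.00754). For *Serpina3i* the difference from Sox11 cKO was -5.40 ± 0.63 (SE, n = 2 arrays per genotype; limma adjusted p = 0.0227). The difference from Sox4 cKO, -3.59, was not called (limma adjusted p = 0.0646). On Sox11 cKO replicate 1 the wild-type log2 levels were only 5.89 for *Serpina3f* and 5.36 for *Serpina3i*. A fall as large as in dcKO cells could not show from such levels, which limits the differences from Sox11 cKO. With either Sox4 cKO array left out, and without the dye term (adjusted p = 0.132), the *Serpina3f* difference from Sox4 cKO was not called. The *Serpina3i* difference from Sox11 cKO was not called without the dye term (adjusted p = 0.0646).

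Probes of this cluster did not all agree. A second *Serpina3f* probe (A_55_P2104975) had dcKO ratios of -1.06 and -2.83 and was not called, at -1.95 ± 0.39 (SE, n = 2 arrays; limma adjusted p = 0.0574). A second *Serpina3i* probe (A_55_P2142232) had ratios of 1.73 and -1.14, in opposite directions on the 2 arrays. It moved with the probe of the pseudogene *Serpina3h* (A_55_P2142222), whose dcKO ratios were 2.06 and -1.36. These probes differed by at most 0.34 log2 units on any of the 6 arrays. The brighter *Serpina3i* probe, in turn, differed from the *Serpina3f* probe by at most 0.54, and from its own partner by up to 4.32. Which transcripts each probe bound was not tested, and *Serpina3i* is uncertain as a separate result for that reason.

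Regulatory sequence upstream of *Serpina3f* and *Serpina3i* is shown because their brighter probes moved together. Each run holds the 250 bases before the RefSeq transcript start (GRCm38.p6, plus strand, 5′ to 3′), at chr12:104214294-104214543 for *Serpina3f* and at chr12:104262872-104263121 for *Serpina3i*. Capitals mark TTCNNNGAA, a palindrome of the type bound by STAT factors.
Serpina3f: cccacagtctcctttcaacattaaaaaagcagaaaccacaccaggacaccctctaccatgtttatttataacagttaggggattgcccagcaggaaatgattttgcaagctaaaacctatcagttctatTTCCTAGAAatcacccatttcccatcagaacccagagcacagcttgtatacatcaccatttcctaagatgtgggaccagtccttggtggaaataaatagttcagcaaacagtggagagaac
Serpina3i: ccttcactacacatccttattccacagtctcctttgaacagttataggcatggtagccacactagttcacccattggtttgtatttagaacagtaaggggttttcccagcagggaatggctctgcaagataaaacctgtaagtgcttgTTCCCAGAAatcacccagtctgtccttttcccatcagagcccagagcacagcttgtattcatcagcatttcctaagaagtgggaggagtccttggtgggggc
The upstream runs were 64.1% identical in a global alignment. The palindrome began 121 bases before the start in *Serpina3f* and 102 bases before it in *Serpina3i*. It was present in 7 of the 49 Serpin genes with a sequence in the table and in 7.02% of 32851 mouse upstream windows of this length. A gene counted if any of its windows matched, so gene and window rates here and below are in unlike units. The SOX core ACAAAG, searched on both strands, was in neither of the runs shown, in 13 of the 49 Serpin genes and in 16.5% of windows. A match is a description of the letters and not a binding site.

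*Serpina3m* (probe A_55_P2161410) was higher in dcKO cells. Its levels were 6.42 and 6.57 in dcKO channels and 4.87 and 4.86 in wild-type channels, and the latter were not well above background. *Serpina3m* was thus at least 2.83-fold higher in dcKO cells (limma adjusted p = 0.00692), where the bound sets the mean dcKO level against the lowest signal measured above background on each array. With either dcKO array left out the probe was no longer called. In Sox4 cKO and Sox11 cKO cells neither channel was above background. The fitted difference between dcKO and Sox4 cKO, 1.62 ± 0.24 (SE, n = 2 arrays per genotype; limma adjusted p = 0.0412), was called but rests on signals below background in the Sox4 cKO arrays. That call was lost with any 1 of the Sox4 cKO or dcKO arrays left out and without the dye term (adjusted p = 0.0651). *Serpina3b* (probe A_55_P2161450) gave dcKO ratios of -0.25 and 0.09 and was not called. Over the 4 detected genes, the median log2 fold change was -2.05 in dcKO, 1.20 in Sox11 cKO and -0.43 in Sox4 cKO cells. Over all detected probes it was -0.03, 0 and 0.01. The 4 dcKO values ran from -4.24 to 0.35. Only *Serpina3f* and *Serpina3i*, whose brighter probes moved together, were lower on both dcKO arrays, and the other 2 genes had opposite signs. The dcKO median thus describes neither pair.

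Alpha-1-antitrypsin, the product of the Serpina1 genes, is a secreted inhibitor of neutrophil elastase. In mice it is encoded by several nearly identical genes. No Serpina1 probe was called in any genotype, and the ratios of 1 array stood apart. On Sox11 cKO replicate 2, *Serpina1a* (probe A_55_P2165414) had a ratio of -4.64, *Serpina1c* (probe A_55_P2010301) -4.14 and *Serpina1e* (probe A_55_P2010292) -3.98. On Sox11 cKO replicate 1 the same genes had ratios of 1.08, 1.14 and 1.01, in the opposite direction.

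The wild-type channel of that array carried the high level. Wild-type *Serpina1a* was 10.55 on Sox11 cKO replicate 2, 6.40 on replicate 1, 6.40 and 7.12 on the dcKO arrays and 5.24 and 5.21, not well above background, on the Sox4 cKO arrays. Wild-type *Serpina1c* was 10.37 on that array and 6.22 on replicate 1. The knockout channel of Sox11 cKO replicate 2 read 5.91 for *Serpina1a*, within the range of knockout levels on the other arrays. The fitted Sox11 cKO fold change of *Serpina1a*, -1.78 ± 0.87 (SE, n = 2 arrays; limma adjusted p = 0.803), covers this disagreement with an interval of -3.82 to 0.27. In dcKO cells *Serpina1a* had ratios of 0.14 and 0.20, and in the brighter *Serpina1e* probe they were 0.35 and 0.47.

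The Serpina1 probes cannot be read as separate genes. The *Serpina1a* probe and the dimmer *Serpina1e* probe (A_55_P2113857) differed by at most 0.40 log2 units over the 6 arrays, while their ratios ranged from -4.64 to 1.48. *Serpina1f*, a more distant member of the cluster (probe A_55_P2010288), had Sox11 cKO ratios of 0.15 and -0.27 and did not share the pattern. The upstream sequence of *Serpina1a* and *Serpina1c* is shown as the most alike pair of the cluster. Both runs hold 250 bases before the start on the minus strand of GRCm38.p6, 5′ to 3′, at chr12:103863620-103863869 and chr12:103904951-103905200. Capitals mark TGANTCA, the motif type bound by AP-1 factors.
Serpina1a: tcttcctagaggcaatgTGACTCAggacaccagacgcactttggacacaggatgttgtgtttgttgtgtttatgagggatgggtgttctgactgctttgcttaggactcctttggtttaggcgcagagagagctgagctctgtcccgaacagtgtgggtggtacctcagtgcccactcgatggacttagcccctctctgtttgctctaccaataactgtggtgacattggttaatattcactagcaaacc
Serpina1c: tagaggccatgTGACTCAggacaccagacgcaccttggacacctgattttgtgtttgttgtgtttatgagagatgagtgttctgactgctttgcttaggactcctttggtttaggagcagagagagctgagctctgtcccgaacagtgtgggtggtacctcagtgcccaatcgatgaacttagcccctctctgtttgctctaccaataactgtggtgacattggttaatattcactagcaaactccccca
These runs were 91.0% identical. *Serpina1e*, whose probes showed the same array pattern, was 60.3% identical to *Serpina1a* and 63.1% to *Serpina1c* upstream. Across the family TGANTCA was found in 10 of 49 genes with a sequence, in at least 1 window each. Of all single windows 6.75% held it, which is an unlike unit. Of the 10 genes, 7 were among the 11 Serpinb genes on chromosome 1 that had a sequence. The chromosome 1 members with the motif were *Serpinb2*, *Serpinb5*, *Serpinb7*, *Serpinb8*, *Serpinb10*, *Serpinb11* and *Serpinb12*.

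*Serpina9*, known from germinal centre B cells, was also high in the wild-type channel of Sox11 cKO replicate 2. The wild-type level was 8.12 there and 5.35 on replicate 1, and ratios were -0.02 and -1.42 for replicates 1 and 2. In dcKO cells the *Serpina9* ratios were 1.95 and 0.27, and the fold change of 1.11 ± 0.24 (SE, n = 2 arrays; limma adjusted p = 0.0701) was not called. *Serpina11* had dcKO ratios of 0.46 and -0.29.

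**Figure D4:**
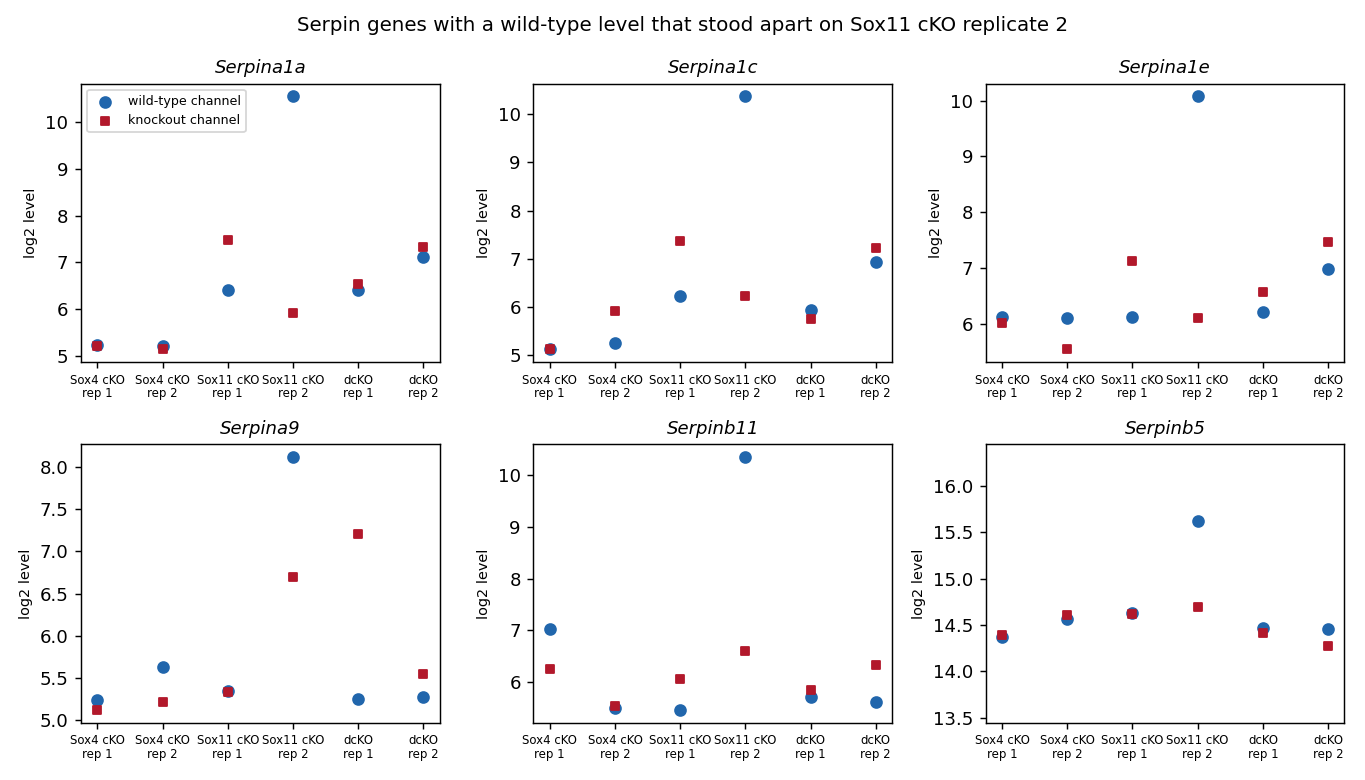
Log2 levels in the wild-type channel (circles) and knockout channel (squares) of the 6 arrays for *Serpina1a*, *Serpina1c*, *Serpina1e*, *Serpina9*, *Serpinb11* and *Serpinb5*, 1 panel per gene with its own axis. The wild-type circle of Sox11 cKO replicate 2 is the highest in every panel, at 10.55 for *Serpina1a* and 15.62 for *Serpinb5*.

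*Serpinb1a*, which encodes a leukocyte elastase inhibitor that also blocks cathepsin G and proteinase 3, was the called gene of clade B. Probe A_55_P2006008 had levels of 10.84 and 9.31 in dcKO and 7.12 and 8.34 in wild-type channels. Knockout was above wild type on both arrays, by 3.72 on the first and 0.97 on the second. The log2 fold change was 2.35 ± 0.44 (SE, n = 2 arrays; limma adjusted p = 0.0471). This call was lost with either dcKO array left out, without the dye term (adjusted p = 0.26), with the dye effect subtracted before the fit (adjusted p = 0.0604) and when only probes above background in at least 2 channels were tested (adjusted p = 0.0613). In Sox4 cKO cells the ratios were 0.07 and 0.04. In Sox11 cKO cells they were -0.06 and -2.90, where the wild-type level was 6.46 on replicate 1 and 8.96 on replicate 2. The wild-type levels of *Serpinb1a* on the 6 arrays thus spanned 6.46 to 9.62, and the dcKO level of replicate 2 lay within that span while that of replicate 1 lay above it.

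Its paralogue *Serpinb1b* (probe A_52_P86116) had dcKO ratios of 1.32 and 0.25, Sox4 cKO ratios of -1.004 and -1.45 and Sox11 cKO ratios of -0.30 and -1.60. *Serpinb1b* was above wild type on both dcKO arrays and below it on all arrays of the lone knockouts. Its wild-type levels ran from 5.46 on Sox11 cKO replicate 1 to 7.53 on Sox4 cKO replicate 2, and its highest knockout level was 6.98. No dcKO level thus lay above the wild-type span. No genotype passed the adjusted threshold, with fold changes of 0.79 ± 0.18 (SE, n = 2 arrays; limma adjusted p = 0.0884), -1.23 ± 0.18 (SE, n = 2 arrays; limma adjusted p = 0.0787) and -0.95 ± 0.18 (SE, n = 2 arrays; limma adjusted p = 0.181). The differences did pass, at 2.01 ± 0.26 (SE, n = 2 arrays per genotype; limma adjusted p = 0.0262) between dcKO and Sox4 cKO and at 1.74 ± 0.26 (SE, n = 2 arrays per genotype; limma adjusted p = 0.0464) between dcKO and Sox11 cKO cells. Both *Serpinb1b* differences were lost with either dcKO array left out (adjusted p = 0.138 to 0.247), without the dye term (adjusted p = 0.201 and 0.334) and when the background offset was 50. The first was also lost with either Sox4 cKO array left out, and the second without Sox11 cKO replicate 2 (adjusted p = 0.0859).

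Over all Serpin probes, 3 of 75 were called in the difference between dcKO and Sox4 cKO, beside 0.562% of all probes, namely *Serpina3f*, *Serpina3m* and *Serpinb1b*. In the difference between dcKO and Sox11 cKO, 3 were called beside 0.449% of all probes, namely *Serpina3f*, *Serpina3i* and *Serpinb1b*. The first count was 0 without Sox4 cKO replicate 1, 1 without dcKO replicate 2 and 9 with either Sox11 cKO array left out, where 21, 130 and 812 probes of the whole array were called against 313 with all arrays. The second was 2 with either dcKO array left out, 7 with either Sox4 cKO array left out and 22 without Sox11 cKO replicate 1. For the whole array these fits called 81 or 32, 237 and 1533 probes, against 250 with all arrays. Between Sox11 cKO and Sox4 cKO, 0 Serpin probes were called by limma, beside 0.0108% of all probes, and 9 had an unadjusted p below 0.05, as did 3535 of all probes. The number called was 12 without Sox11 cKO replicate 1 and 1 without replicate 2, with 792 and 202 probes called over the whole array against 6 with all arrays.

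The Serpinb6 genes, relatives of an inhibitor of cathepsin G, differed among themselves. *Serpinb6b* (probe A_55_P2013043) had ratios of -1.87 and -2.67 in Sox4 cKO and -2.31 and -1.41 in Sox11 cKO cells, below wild type on all 4 arrays. It was not called, with log2 fold changes of -2.27 ± 0.47 (SE, n = 2 arrays; limma adjusted p = 0.243) and -1.86 ± 0.47 (SE, n = 2 arrays; limma adjusted p = 0.343). With either Sox11 cKO array left out, which gives the same fit for Sox4 cKO, it was called in Sox4 cKO cells at an unchanged fold change. On the dcKO arrays *Serpinb6b* had ratios of 1.81 and -0.75, in opposite directions. Wild-type levels of *Serpinb6b* ran from 9.03 to 12.97. *Serpinb6d* (probe A_52_P602669) had dcKO ratios of 2.11 and 1.05 and a fold change of 1.58 ± 0.37 (SE, n = 2 arrays; limma adjusted p = 0.0941). It was called with any 1 of the Sox4 cKO or Sox11 cKO arrays left out, where both arrays of a genotype give the same fit. *Serpinb6d* was also called with only the arrays compared (limma adjusted p = 0.0114) and in the authors' deposited ratios (limma adjusted p = 0.0258). *Serpinb6a* (probe A_55_P2066727) was not called, with dcKO ratios of -0.14 and -0.89 and Sox11 cKO ratios of -0.40 and -0.75. The *Serpinb6a* and brighter *Serpinb6c* probes differed by at most 0.46 log2 units on any array.

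Granzyme B is the known target of Serpinb9. Of the 7 Serpinb9 genes on the array only *Serpinb9* itself was detected (probe A_55_P2134246). Its dcKO ratios were 1.502 and 0.36, and its Sox11 cKO ratios of 1.45 and -2.17 opposed each other. *Serpinb9f* (probe A_55_P1971425) failed the background test in both wild-type channels of the dcKO arrays and was at least 2.57-fold higher in dcKO cells (limma adjusted p = 0.0362). Its fitted log2 fold change, 1.499, lay just under the threshold of 1.5, so it was not called. The limma adjusted p was 0.243 without the dye term and 0.0511 when only probes above background in at least 2 channels were tested. It was 0.157 with the background offset at 50 and 0.423 with the processed signals. At offset 50 the log2 fold change was 0.91, so the bound holds for the main processing only. The adjusted p stayed below 0.05 under the other alternatives with both dcKO arrays. Which transcripts the probe bound was not tested. The median over the 7 Serpinb9 genes was 0.93 in dcKO cells, but 6 of them were not detected.

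Other clade B genes are typical of epidermis or of wounded skin. *Serpinb5* encodes maspin, an epithelial member that inhibits no protease, and its ratios were 0.02 and 0.04 in Sox4 cKO and -0.06 and -0.18 in dcKO cells (limma adjusted p = 0.898). On Sox11 cKO replicate 2 its wild-type level was 15.62, against 14.37 to 14.63 on the other arrays. *Serpinb2*, the gene of plasminogen activator inhibitor 2 (probe A_55_P2004867), was above wild type on both dcKO arrays, by 0.88 and 0.77, and on both Sox4 cKO arrays, by 1.18 and 0.68. Neither value passed the adjusted threshold (limma adjusted p = 0.151 and 0.374). *Serpinb10* (probe A_52_P73620) had a ratio of -3.63 on Sox11 cKO replicate 1 and -0.16 on replicate 2, so the fold change of -1.90 ± 0.48 (SE, n = 2 arrays; limma adjusted p = 0.337) came from 1 array. *Serpinb11* (probe A_51_P438853) had Sox11 cKO ratios of 0.60 and -3.75, and wild-type levels of 5.46 and 10.35 on these arrays. *Serpinb8*, an inhibitor of furin, had dcKO ratios of 0.59 and -0.51.

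Of the 13 detected Serpinb genes, 7 were above wild type on both dcKO arrays, 3 were below it on both and 3 disagreed. For all 12011 detected named genes these counts were 3660, 4596 and 3754. The median log2 fold change of the Serpinb genes was 0.49 in dcKO, -0.64 in Sox11 cKO and -0.17 in Sox4 cKO cells. Over all detected named genes it was -0.05, -0.002 and 0.01. With median centring in place of loess the dcKO median of the Serpinb genes was -0.015, so its direction depends on the normalisation. In Sox11 cKO cells 8 of the 13 were below wild type on both arrays, and none was above it on both. Of all detected named genes, 2644 were below it on both and 2638 above it on both. On Sox11 cKO replicate 2 all 13 were below wild type, beside 11414 of 22763 detected probes.

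Detected members of the other clades included *Serpinf1* and *Serpinh1*. *Serpinh1*, the collagen chaperone of the endoplasmic reticulum, was below wild type on both dcKO arrays, with ratios of -1.13 and -0.89, and had a fold change of -1.01 ± 0.25 (SE, n = 2 arrays; limma adjusted p = 0.108). The brighter *Serpinf1* probe (A_55_P1973159) had dcKO ratios of -1.14 and -1.02 and a fold change of -1.08 ± 0.30 (SE, n = 2 arrays; limma adjusted p = 0.144). *Serpinf1* encodes pigment epithelium-derived factor, which inhibits no protease, and its second probe, at 0.24, was not above background in any channel. Over the 9 detected genes that are neither Serpina3 nor Serpinb, the median log2 fold change was 0.08 in dcKO, -0.68 in Sox11 cKO and 0.05 in Sox4 cKO cells.

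**Figure D5:**
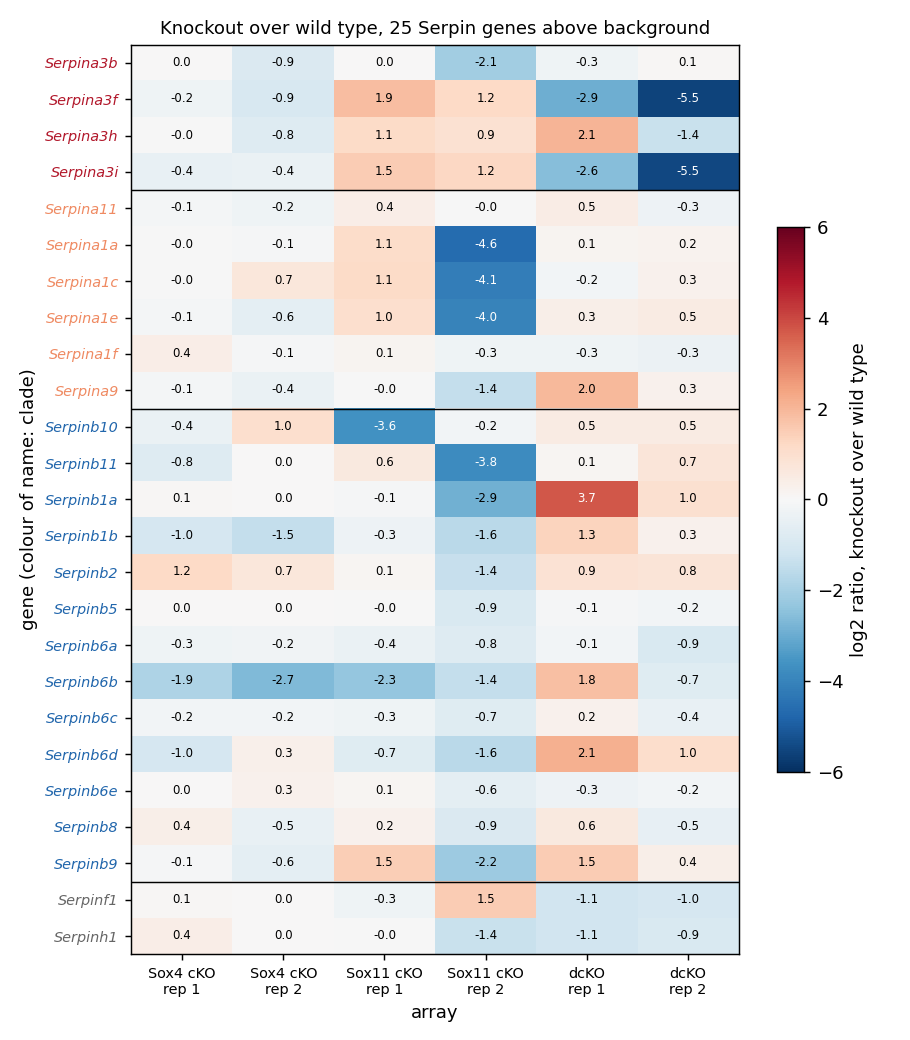
Log2 ratio of knockout over wild type on each of the 6 arrays for 25 of the 26 detected Serpin genes, by clade (red Serpina3, orange other Serpina, blue Serpinb, grey other clades), with red cells higher and blue cells lower in the knockout. The lowest values are those of *Serpina3f* (-5.55) and *Serpina3i* (-5.47) on dcKO replicate 2, and Sox11 cKO replicate 2 holds low values of *Serpina1a* (-4.64) and *Serpinb11* (-3.75).

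Replicates of Sox11 cKO disagreed more over the family than those of the other genotypes. Of 31 detected Serpin probes, 12 differed in sign between Sox11 cKO replicates by more than 1 log2 unit, against 2 for Sox4 cKO and 4 for dcKO. That count was not made over the whole array. By sign alone, 15 Serpin probes disagreed in Sox11 cKO, 9 in Sox4 cKO and 9 in dcKO. Of all 22763 detected probes, 13257, 11225 and 7856 did so, with Sox11 cKO again the highest. On Sox11 cKO replicate 2, 13 of the 26 detected genes (50%) were below wild type by more than 1, beside 4.48% of all detected probes, and their median ratio was -1.14. On replicate 1 the median was 0.10. The wild-type channel of replicate 2 was the highest of the 6, and apart from the rest by Dixon's ratio, for 6 of the 26 genes (23.1%), beside 1.68% of detected probes. The summed linear level of the 10 keratinocyte markers was 500362 in that wild-type channel and 230094 in its knockout channel, against 257173 to 425783 in the other wild-type channels. For the 7 differentiation markers matched of 8 listed, it was 12986 in that wild-type channel and 4790 in its knockout channel, against 1270 to 14558 in the other wild-type channels, the highest being Sox4 cKO replicate 2. Their part in the Serpin values was not tested.

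Without Sox11 cKO replicate 1, 13 Serpin probes were called in Sox11 cKO cells on the remaining array, of *Serpina1a*, *Serpina1c*, *Serpina1d*, *Serpina1e*, *Serpina3b*, *Serpina3f*, *Serpinb9*, *Serpinb9c*, *Serpinb11* and *Serpinf1*. Without replicate 2, 2 were called, of *Serpinb6b* and *Serpinb10*. Over the whole array these fits called 794 and 182 probes, against 48 with all arrays. In these fits the lone array is assumed to vary like the other genotypes.

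Genes that act with the serpins were read from lists of 32 proteases and partners and 15 protease inhibitors of other families. Of the proteases and partners, 15 were detected and 0 were called by limma in any genotype. In dcKO cells 8 of the 32 had an unadjusted p below 0.05, beside 4223 of all 21368 named genes. *Lrp1*, the receptor that clears serpin-protease complexes, had a dcKO fold change of -1.45 ± 0.17 (SE, n = 2 arrays; limma adjusted p = 0.00951), and the kallikrein *Klk10* of -1.45 ± 0.28 (SE, n = 2 arrays; limma adjusted p = 0.0499), both under the fold threshold. Of the other inhibitors, 13 were detected, and 3 of 15 were called in dcKO cells. Of all 21368 named genes, 120 were called higher and 178 lower in these cells. *Spink5*, the inhibitor of epidermal kallikreins, was higher with ratios of 4.70 and 2.78 (limma adjusted p = 0.0169). The cystatin gene *Cst6* was higher with ratios of 1.53 and 2.24 (limma adjusted p = 0.0331). *Wfdc2* was lower with ratios of -2.98 and -3.72 (limma adjusted p = 0.0133).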

How the data were processed

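RNA of knockout and wild-type keratinocytes was measured on 6 two-channel Agilent arrays, and sample titles gave the genotype. For each channel the deposited scanner files hold linear intensity values without normalisation, which the authors extracted in Feature Extraction (version 11.0.1.1). They also hold the software's processed intensity and a log10 ratio of these, which per the file headers are background subtracted and dye normalised. A deposited table of the authors' log2 ratios had undergone, per the methods, background correction, loess and removal of dye effects. Set against the scanner values, every column ran with the knockout as numerator. The processed values and that table served as alternatives.

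Analysis used R 4.3.3 and limma 3.58.1. Median signals were corrected with normexp (offset 16) and loess normalised within arrays. Of 62976 spots per array, 3671 control spots were dropped, 194 to 288 outlier spots were set to missing, and 0 were saturated. Spots were averaged into 55681 probes. A linear model had 1 term per genotype and a dye term, with 2 residual and 5.37 prior degrees of freedom, and 6 comparisons. Calls needed an adjusted p below 0.05 and an absolute log2 fold change above 1.5, as in the study's methods. Levels per channel are log2 values after loess and Aquantile, and levels of different probes are not compared. The percentage of probes well above background was 35.1% to 42.8% in knockout and 37.3% to 45.0% in wild-type channels. The model was tested on simulated data.

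The dye term equals a block on the replicate number, as the dyes followed it. Deviations of same-numbered arrays from their genotype means correlated at 0.316, 0.244 and 0.125, so the block was kept. All arrays came from 1 slide and 1 scan.

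Probes were named by RefSeq accession, of which 95.1% matched a table for GRCm38.p6, and upstream sequences are RefSeq's. The array was designed on another build, so no probe coordinates are given. A probe of *Serpina3g* with an older accession received no name and is not analysed here. A gene is given by its brightest probe. Genes were named where any probe had an adjusted p below 0.05, where they were detected Serpina3 members, where they were detected and among the 5 largest rises or falls in a genotype, and for *Serpinf1*, *Serpinb1a* and *Serpina3f*, which gave 21, of which 1 is not reported here. *Serpinb5*, *Serpinb8*, *Serpinb6c*, *Serpinb6e*, *Serpina1e*, *Serpina1f*, *Serpina11* and the genes called without an array were added after their values were seen. The members, lists and motifs were chosen with earlier results of these data known.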

Additional observations from a re-analysis of the deposited data

Results flagged for a closer look

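Over the 6 wild-type channels, the level of 7 of the 26 detected Serpin genes held 1 channel apart from the others by Dixon's ratio past its 95% critical value for 6 samples. Chance flags about 1 in 20 groups, and 5.87% of all detected probes had such a channel. The ratio was 0.643 for *Serpina1a*, 0.654 for *Serpina1c*, 0.778 for *Serpina1e*, 0.864 for *Serpina9*, 0.682 for *Serpinb11* and 0.793 for *Serpinb5*, each with the highest level on Sox11 cKO replicate 2. The Serpina1 probes are not independent of each other, as their ratios ran in parallel over the arrays. For *Serpinb6e* it was 0.695, with the lowest level, 5.04, on Sox4 cKO replicate 2 and levels near background.

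By a test of the difference itself, probes of 4 genes had a fitted fold change in dcKO cells unlike that in a lone knockout. Without the dye term only *Serpina3f* in dcKO minus Sox11 cKO was called (limma adjusted p = 0.0458). In dcKO minus Sox4 cKO the limma difference in log2 fold change was -3.65 for *Serpina3f* (adjusted p = 0.024), 1.62 for *Serpina3m* (adjusted p = 0.0412; signals below background in Sox4 cKO) and 2.01 for *Serpinb1b* (adjusted p = 0.0262). In dcKO minus Sox11 cKO it was -5.78 for *Serpina3f* (adjusted p = 0.00754), -5.40 for *Serpina3i* (adjusted p = 0.0227) and 1.74 for *Serpinb1b* (adjusted p = 0.0464). Wild-type *Serpina3f* and *Serpina3i* were as low as 5.89 and 5.36 on the Sox11 cKO arrays, where a fall of the dcKO size could not show. Their probes may not report separate genes, as given above.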

How the results depend on the processing

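No called value changed sign under the alternatives run. Of the 219 summary values recomputed, 166 were classed as the same, as were 759 of 882 values of single genes. For a fold change this meant the same side of the threshold or a move within the spread. Several alternatives return the fold change of a genotype unchanged by design, so these shares do not measure robustness. These are the fits without the dye term, with its effect subtracted first, on brighter probes only or on the arrays compared. So are those without an array of another genotype. *Serpina3f* in dcKO stayed at -4.24 in each. With the background offset at 50, 0 Serpin probes were called in dcKO, dcKO minus Sox4 cKO and dcKO minus Sox11 cKO, and likewise 0 in each with the processed signals. *Serpina3f* then had log2 fold changes of -4.18 (adjusted p = 0.0549) and -4.27 (adjusted p = 0.235), and its limma adjusted p was 0.0174 or lower under the other alternatives. The dcKO calls of the whole array fell from 421 to 78 and 0 as well. Without the replicate block (no dye term), 3 probes were called in dcKO, 0 in dcKO minus Sox4 cKO and 1 in dcKO minus Sox11 cKO. The authors' deposited ratios gave 7 and 10 in these differences (664 and 622 over the whole array), and median centring gave 7 in the second (827 over the whole array). Fits on only the arrays compared gave 1 in Sox4 cKO, 7 in dcKO, 9 in dcKO minus Sox4 cKO and 7 in dcKO minus Sox11 cKO, with 185, 509, 812 and 237 probes called over the whole array.

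The Serpina3 median in Sox11 cKO was 0.94 with offset 50 and 1.61 with processed signals. The Serpinb median in dcKO was -0.015 with median centring. The median of the remaining genes was -0.12 in Sox4 cKO with processed signals, -0.031 with median centring and -0.035 with the mean over probes. In dcKO it was 0.048 with offset 50, 0.28 with processed signals and -0.19 with median centring. These causes were not tested.

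Leaving out each array in turn gave 0 to 1 calls in Sox4 cKO, 0 to 13 in Sox11 cKO, 2 to 7 in dcKO, 0 to 9 in dcKO minus Sox4 cKO, 2 to 22 in dcKO minus Sox11 cKO and 0 to 12 in Sox11 cKO minus Sox4 cKO. The highest counts came without Sox11 cKO replicate 1, and the lowest dcKO count with either dcKO array left out. Dropping either array of a genotype gave the same fit for the genotypes that kept both arrays. Serpina3 medians ran from -0.98 to 0.011 in Sox4 cKO, 0.46 to 1.95 in Sox11 cKO and -3.16 to -1.81 in dcKO. Serpinb medians ran from -0.55 to 0.30, -0.90 to -0.42 and 0.041 to 0.49. Medians of the remaining genes ran from -0.42 to 0.36, -0.93 to 0.02 and -0.70 to 0.45. A slide or scan block was not run, since there was 1 of each. For the 34 of 60 genes not detected, signals near background limit what 2 arrays per genotype can show, and changes such as that of *Serpina3m* are bounds.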
